A study of Mus musculus with 44 samples.

Results

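Transcript levels of mouse induced leukocyte stem (iLS) cells were compared between 48 h after the start of B-cell differentiation and 0 h. The comparison rests on 6 of the 44 libraries of the series, the 3 sampled at each of these times. The series followed the culture over 16 time points by poly(A) RNA sequencing. The 3 libraries at 24 h and the 3 at 72 h are used here only to place the 48 h values in time. iLS cells are multipotent blood progenitors, here from fetal liver of the strain C57BL/6J, and the label Id3-ERT2 names the construct that induced them. ERT2 is a receptor domain that responds to 4-hydroxytamoxifen (4-OHT). The feeder layer was TSt-4, a line of mouse stromal cells, at both times. Until 0 h the medium held 20 ng/mL of IL-7, 10 ng/mL each of SCF and Flt-3L, and 40 nM of 4-OHT. For differentiation it held 5 ng/mL of IL-7 and lacked 4-OHT, and neither SCF nor Flt-3L is named for it. The 0 h cells carry the same Id3-ERT2 construct. The effects of the changes in IL-7 and 4-OHT, of any withdrawal of SCF and Flt-3L and of the move to a new co-culture cannot be told apart. No untreated culture kept for 48 h is among the groups compared. Whether feeder cells were taken off before RNA extraction is not stated, nor whether replicates were separate cultures, so a p-value covers only library-to-library spread, which may be technical.

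E proteins such as the product of Tcf3 are transcription factors that open the B-lineage program, and Id proteins bind them and keep them from DNA. When Id activity ends, E proteins are known to act with Ebf1 and Foxo1 and then Pax5, after which the surrogate light chain genes Igll1 and Vpreb1 and the receptor genes Cd79a and Cd79b mark early B cells. IL-7 is the main cytokine of mouse B-cell precursors and signals through STAT5, while Flt3 and Kit are the receptors of the progenitor cytokines Flt-3L and SCF.

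The balance of stromal and blood-cell transcripts differed strongly between the times. The 26 stromal feeder genes, such as those of collagens and fibronectin, summed to 529, 869 and 1934 FPKM in 0 h replicates 1, 2 and 3, and to 6271, 6939 and 9355 in the 48 h replicates. The 22 general blood-cell genes, such as Ptprc (CD45), Coro1a and Laptm5, summed to 2938, 3341 and 2492 FPKM at 0 h and to 1101, 982 and 457 at 48 h. Neither sum overlapped between the times, and 48 h replicate 3 stood out with the most stromal and the least blood-cell signal. The mean log2 difference was 2.95 for the stromal and -1.88 for the blood-cell sum (exact two-sided permutation test, p = 0.1 for each, the smallest p that 3 against 3 libraries can give). In such bulk samples fewer cells of a type and less RNA per cell cannot be told apart. FPKM values are shares of a library, so each result below is also given, where it matters, after every library was scaled to its blood-cell genes. That scaling moves the median change of all tested genes from 0 to 1.51 (log2). Read against 0, a scaled value is the change relative to the blood-cell genes. Read against 1.51, it is the change relative to all genes, which largely takes the scaling back. Which reference suits a gene depends on the cells that express it, and these values do not give that.

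The file holds no read counts and the depth is unknown. From the steps between low values, the 3 libraries at 48 h had 0.624 to 0.669 of the depth of 0 h replicate 1, and the other 0 h replicates 0.66 and 1.49. Between 12.9 and 20.1% of a library's FPKM lay in small RNA genes. Replicates correlated across tested genes at r = 0.922 to 0.932 at 0 h and 0.928 to 0.944 at 48 h, where genes are not independent of each other. The codes of the libraries fall into 6 runs of consecutive numbers whose meaning is not stated, and no run holds both a 0 h and a 48 h library, so no value within a run can be given. A fit with the run as a term compares the 2 times through libraries of other time points.

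Of 13907 genes tested, 5344 (38.4%) passed limma's test at an adjusted p under 0.05 (each adjusted p below is limma's with Benjamini-Hochberg adjustment over these genes). The called genes were 3061 higher (22.0%) and 2283 lower (16.4%) at 48 h. Counts called in a list below are read against these shares, and a count near them says nothing particular about the list. The Notch pathway list, with 2 of 9 higher and 2 lower, is an example. The 3 libraries of 48 h lay apart from the 3 of 0 h in 50.2% of the tested genes, above them in 27.3% and below them in 22.9%. The number of lower genes was 1520 without 48 h replicate 3. A change of over 2-fold on the log2(FPKM + 1) scale was seen for 1983 of the higher and 1022 of the lower genes, and one of over 8-fold for 65 and 17. Scaled to the blood-cell genes, 11033 genes were called higher and 72 lower. Of the 2283 lower genes, 71 stayed lower under that scaling, 1199 were then called higher and 1013 were not called. With the mean of the stromal genes as a covariate limma called 0 genes, with 691 at an unadjusted p under 0.05 and a smallest adjusted p of 0.291. The stromal sums did not overlap between the times, so this covariate largely stands in for time and the fit can hardly call a change. Tnni2, for example, kept its change of -3.17 there but not its call (limma's adjusted p = 0.950). A missing call or a changed sign in that fit therefore decides nothing about a gene. In 42.8% of the called higher genes the 0 h replicates stood in the order of their stromal sums, against 17.3% of all tested genes and 7.14% of the called lower genes. In a single gene this order, which is also that of the replicate numbers, says little. It is pointed out below for some genes only, and Hk1, Ccnd1, Kitl and Hmga2, for example, had it as well. Tcf3, Rag1, Rag2 and Myc, none of them called higher, had it too.

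**Figure D1:**
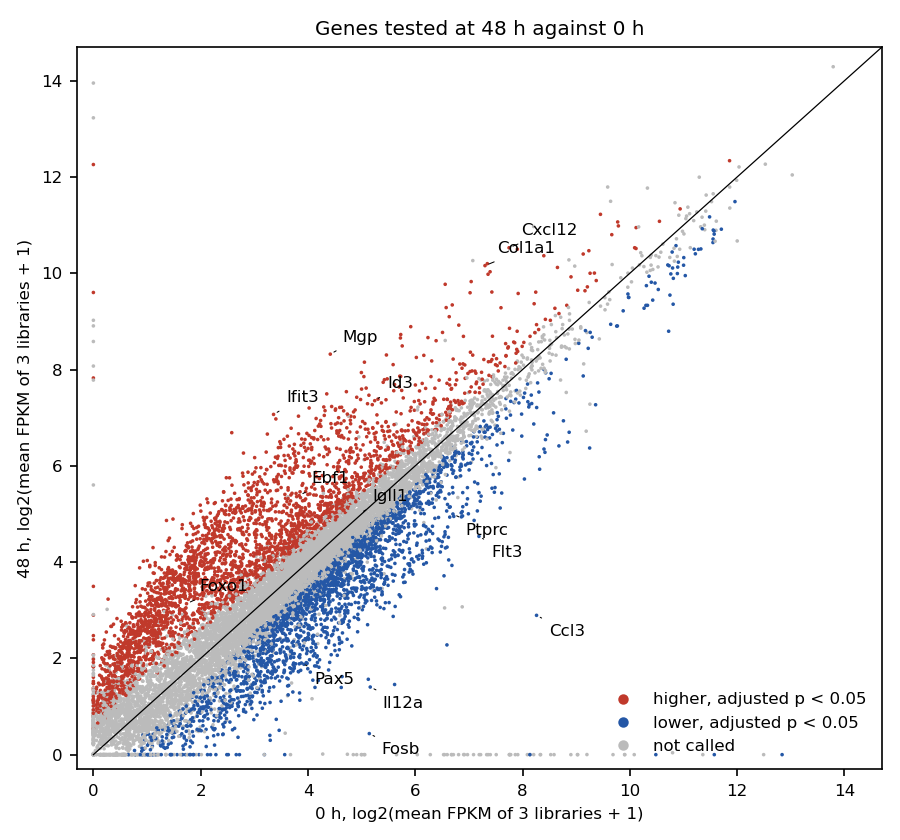
Mean FPKM of the 3 libraries at 48 h (vertical) against the 3 at 0 h (horizontal), both as log2(mean FPKM + 1), for the 13907 genes tested; red and blue points passed limma's test and the line marks equal values. The 3061 higher genes include Mgp, Col1a1 and Ifit3, the 2283 lower genes include Ccl3, Fosb and Flt3, and Igll1 lies near the line.

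Among the B-lineage regulators, Ebf1 and Foxo1 rose while Pax5, Irf8 and Ikzf1 fell. Ebf1, a factor that sets up the B-lineage program, was at 12.9, 14.8 and 12.2 FPKM at 0 h and at 30.3, 47.4 and 44.4 at 48 h (log2 change 1.52 ± 0.33, SE, n = 3 and 3, adjusted p = 0.000354). All 3 libraries at 48 h lay above all 3 at 0 h. Foxo1, a forkhead factor that acts with Ebf1, was at 1.37, 2.20 and 3.43 FPKM and then at 6.30, 6.85 and 10.2 (1.42 ± 0.23, adjusted p = 9.97e-06), again with no overlap. The 0 h replicates of Foxo1 stood in the order of their stromal sums. Per 1000 FPKM of the blood-cell genes Foxo1 was at 0.465, 0.658 and 1.38 and then at 5.72, 6.98 and 22.4, highest in 48 h replicate 3. That library had the most stromal signal and also the lowest blood-cell sum, by which the value is divided. With the stromal mean as a covariate Ebf1 was at 0.69 and Foxo1 at 0.30, neither called, and the part of stromal transcripts in either change was not tested. On the blood-cell scale the changes of Ebf1 and Foxo1 were 3.23 and 2.69, which are 1.72 and 1.18 above the median of all genes.

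Pax5, the factor that commits cells to the B lineage, was at 17.5, 10.2 and 13.4 FPKM at 0 h and at 2.34, 3.65 and 2.24 at 48 h (-1.96 ± 0.44, adjusted p = 0.000558). Its lowest 0 h library was well above its highest 48 h library. Per 1000 FPKM of the blood-cell genes, Pax5 was at 5.95, 3.07 and 5.36 and then at 2.13, 3.72 and 4.90, and these ranges overlapped. After scaling to those genes its change was -0.39 (adjusted p = 0.414). Irf8, a factor of B-lymphoid and myeloid progenitors, fell by 2.47 ± 0.33 and was still lower after the scaling (-0.72, adjusted p = 0.0107). Ikzf1, which encodes the lymphoid factor Ikaros, fell by 1.83 ± 0.39 and stood at -0.01 after it (adjusted p = 0.972).

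Of the 17 tested B-lineage transcription factors, 2 rose and 10 fell, with a median change of -0.83. The 2 that rose were Ebf1 and Foxo1. Besides those named, Pou2f2, Irf4, Spib, Bach2, Bcl11a, Myb and Sox4 fell, by 0.49 to 1.69. Tcf3, the E-protein gene, stood at 55.4, 61.1 and 65.8 FPKM and then at 60.2, 71.0 and 63.9 (0.10 ± 0.13, adjusted p = 0.585), and its relatives Tcf4 (-0.13) and Tcf12 (0.24) were not called either. The median of the list turned, on the blood-cell scale, to 0.52, which is 0.99 below that of all genes, with 8 members higher and 1 lower. Without 48 h replicate 3, 7 members fell in place of 10.

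Of the 4 Id genes 3 rose. Id1 was at 10.3, 20.8 and 35.7 FPKM at 0 h and at 85.3, 110 and 109 at 48 h (2.29 ± 0.34, adjusted p = 2.34e-06). Id3 was at 20.2, 40.2 and 50.3 FPKM and then at 120, 171 and 196 (2.17 ± 0.38, adjusted p = 2.40e-05). All 48 h libraries of Id1 and Id3 exceeded all 0 h libraries, and in both genes the 0 h replicates stood in the order of their stromal sums. Reads of the cell's own Id3 and of the Id3-ERT2 construct cannot be told apart in these values. Id4 rose from at most 1.12 FPKM to between 2.15 and 2.57 (1.21 ± 0.41, adjusted p = 0.0180), a call lost without 0 h replicate 1, without 48 h replicate 3 and with the run of library codes as a term (0.54, adjusted p = 0.441). Id2 was at 18.1 to 20.5 FPKM at 0 h and 16.1 to 32.3 at 48 h (0.23 ± 0.25, adjusted p = 0.498). With the stromal mean as a covariate the changes of Id1 and Id3 turned to -0.30 and -0.16, neither of which passed the test.

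Of 14 tested surrogate light chain and pre-B receptor genes none rose and 5 fell, with a median change of -0.56. Igll1, which encodes lambda5 of the surrogate light chain, was at 33.6, 15.5 and 41.8 FPKM at 0 h and at 34.1, 40.7 and 19.1 at 48 h (0.09 ± 0.59, adjusted p = 0.929). Its partner Vpreb1 was at 14.3, 10.4 and 30.2 and then at 18.1, 33.1 and 14.6 (0.30 ± 0.53, adjusted p = 0.696). The 2 times overlapped in both genes. Vpreb1 and its close copy Vpreb2 share sequence, so their separate values are uncertain. Cd79a, a signal chain of the B-cell receptor, was at 24.3, 14.4 and 9.91 FPKM and then at 15.3, 15.0 and 9.34 (-0.22 ± 0.45, adjusted p = 0.742). Cd79b, the other chain, was at -0.52 ± 0.45 (adjusted p = 0.391).

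**Figure D2:**
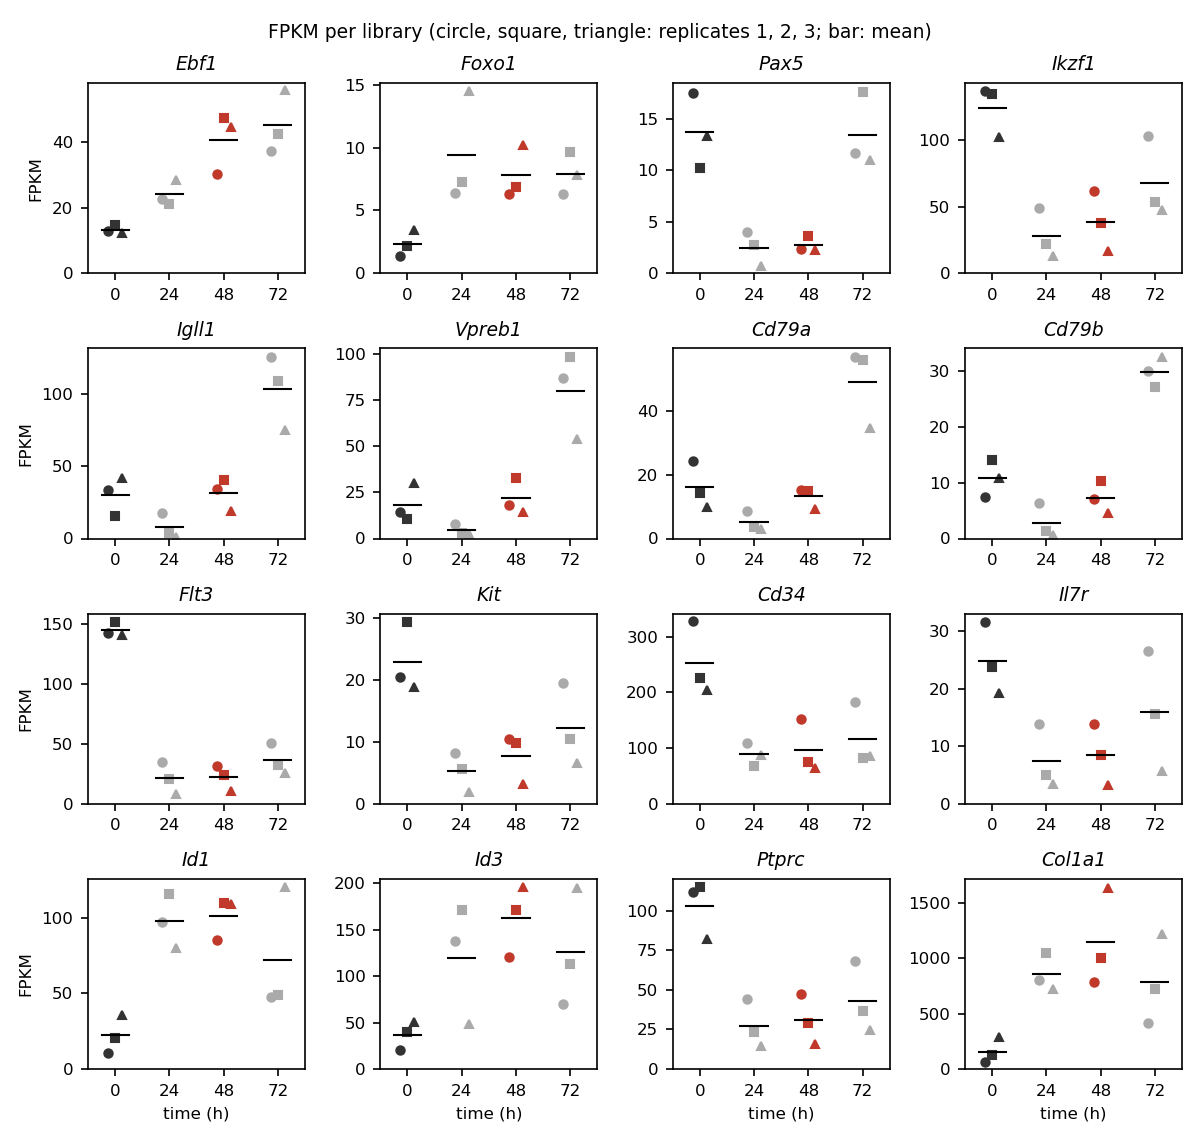
FPKM of 16 genes (1 panel each, with its own linear axis) against time in h; circles, squares and triangles are replicates 1, 2 and 3, bars are means, and the 48 h libraries are red. Ebf1 and Foxo1 stand above 0 h at 48 h, Pax5, Flt3 and Ptprc below it, and Igll1, Vpreb1 and Cd79a overlap their 0 h values.

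The same genes stood higher at 48 h when set against the blood-cell transcripts. Per 1000 FPKM of the 22 blood-cell genes, Igll1 was at 11.5, 4.62 and 16.8 at 0 h and at 31.0, 41.5 and 41.8 at 48 h. Cd79a was at 8.27, 4.31 and 3.98 and then at 13.9, 15.3 and 20.4, and Cd79b was at 2.50, 4.20 and 4.36 and then at 6.44, 10.5 and 9.89. None of the 3 genes overlapped between the times on this scale. Ebf1 was at 4.39, 4.42 and 4.89 and then at 27.5, 48.3 and 97.1, with the highest value in 48 h replicate 3, the library with the lowest blood-cell sum. In the fit scaled to the blood-cell genes Igll1 (1.84, adjusted p = 0.00245), Vpreb1 (2.00, adjusted p = 0.000637), Cd79a (1.47, adjusted p = 0.00207) and Cd79b (1.09, adjusted p = 0.0217) were called higher. Against the median of all genes on that scale, 1.51, the values of Igll1 and Vpreb1 were 0.34 and 0.49 above it and those of Cd79a and Cd79b 0.03 and 0.42 below it.

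**Figure D3:**
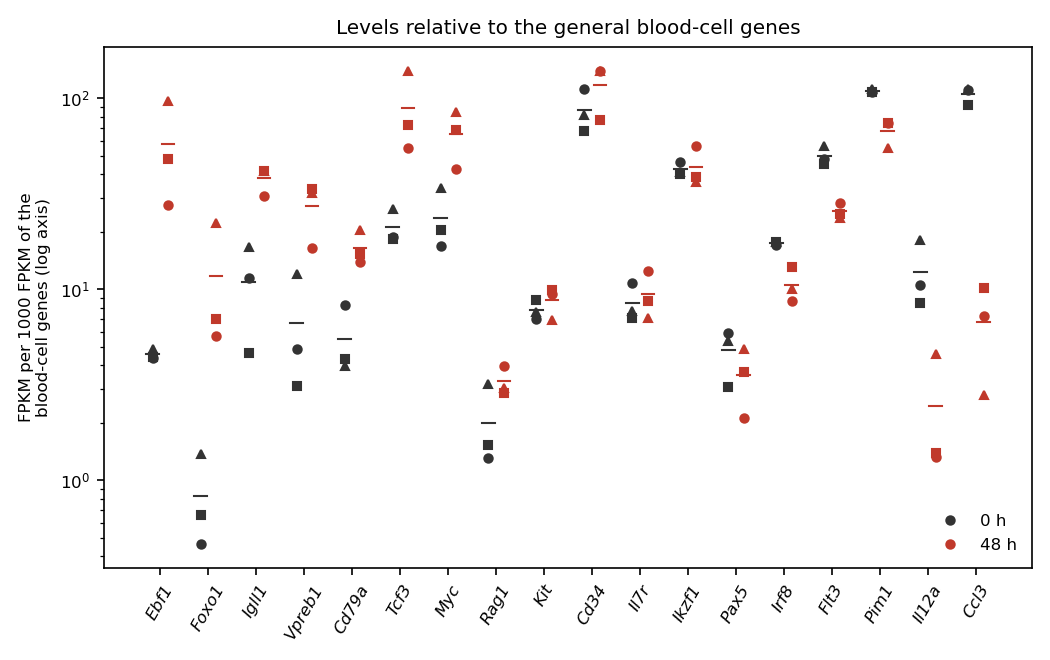
FPKM per 1000 FPKM of the 22 blood-cell genes (log axis) for 18 genes at 0 h (black) and 48 h (red); circles, squares and triangles are replicates 1, 2 and 3 and bars are means. Igll1, Vpreb1 and Cd79a stand higher at 48 h without overlap, Pax5 overlaps, and Flt3 and Ccl3 stand lower without overlap.

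The 5 members of this list that fell encode kinases and other signal proteins that many blood cells share, while the adaptor gene Blnk (-0.59) and the kinase gene Blk (-0.10) were not called. Syk, a kinase downstream of the receptor, was at 48.6, 31.4 and 30.7 FPKM at 0 h and at 13.6, 8.52 and 3.82 at 48 h (-2.08 ± 0.42, adjusted p = 0.000203). Plcg2, a phospholipase of the same pathway, fell by 2.06 ± 0.23, and Pik3cd, a subunit of the lipid kinase PI3K, by 1.99 ± 0.34. Btk (-1.77) and Lyn (-1.38) fell too. After scaling to the blood-cell genes Syk, Plcg2 and Pik3cd were at -0.37, -0.25 and -0.18 with no call, and the median of the list turned to 0.54, which is 0.97 below that of all genes.

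B-cell surface genes fell more often than they rose, with 1 of 12 tested higher, 5 lower (3 without 48 h replicate 3) and a median of -1.03. Ly6d, a marker of B-biased lymphoid progenitors, was at 64.0, 118 and 111 FPKM at 0 h and at 20.9, 24.1 and 1.54 at 48 h (-3.09 ± 0.59, adjusted p = 8.90e-05). The value in 48 h replicate 3 was far below the others. Ly6d was among the 72 genes still lower after scaling to the blood-cell genes (-1.40, adjusted p = 0.0156). Cd93 fell by 2.13 ± 0.23 and Cd72 by 1.95 ± 0.42, and scaled they were at -0.35 and -0.19 with no call. Cd24a, a surface glycoprotein gene, rose by 1.08. The scaled median of the list was 0.54, which is 0.96 below that of all genes.

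In the V(D)J recombination and end joining list, whose proteins cut and rejoin antigen receptor genes, none of 12 rose and 4 fell (median -0.33). Rag2, which encodes a subunit of the recombinase, was at 10.2, 10.8 and 12.4 FPKM at 0 h and at 5.65, 2.53 and 0.705 at 48 h (-1.83 ± 0.40, adjusted p = 0.000407). The 48 h replicates differed from each other, and all lay below 0 h. Rag1, which encodes the other subunit, was at 3.84, 5.12 and 7.95 FPKM and then at 4.36, 2.83 and 1.39 (-0.81 ± 0.41, adjusted p = 0.118), with overlap. Dntt was at no more than 1.05 FPKM at 0 h and was listed at 0 in all 48 h libraries (-0.62 ± 0.22, adjusted p = 0.0241, lost without 0 h replicate 3, without 48 h replicate 2 or 3, with only the 6 libraries fitted and with the run as a term). Xrcc6 and Hmgb2 fell by 0.90 and 0.82, and both turned higher after scaling to the blood-cell genes (0.89 and 1.01), though not beyond the shift of all genes. The scaled median of the list, 1.21, is 0.30 below that of all genes.

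Progenitor genes divided into receptors and regulators that fell and 3 genes that rose. Flt3, the Flt-3L receptor gene, was at 142, 151 and 141 FPKM at 0 h and at 31.3, 24.4 and 10.8 at 48 h (-2.77 ± 0.34, adjusted p = 1.61e-07). The 0 h libraries were nearly level and all 48 h libraries were far below them. Per 1000 FPKM of the blood-cell genes Flt3 went from 48.4, 45.3 and 56.4 to 28.4, 24.9 and 23.7, and it was still lower in the scaled fit (-0.97, adjusted p = 7.78e-05). Kit, the SCF receptor gene, was at 20.5, 29.3 and 18.9 FPKM and then at 10.4, 9.74 and 3.17 (-1.56 ± 0.37, adjusted p = 0.00108). Cd34, a surface marker of progenitors, was at 328, 225 and 204 FPKM and then at 152, 75.6 and 63.4 (-1.44 ± 0.36, adjusted p = 0.00156). The changes of Kit and Cd34 turned to 0.12 and 0.39 after the scaling, with no call.

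Mycn, a Myc family factor, was at 101, 92.8 and 87.1 FPKM at 0 h and at 27.5, 20.8 and 7.52 at 48 h (-2.44 ± 0.57, adjusted p = 0.000914). Scaled to the blood-cell genes its change was -0.65, with no call (adjusted p = 0.185). Meis1 fell by 1.05 ± 0.37, a call lost without any of 4 libraries (0 h replicate 2 or 3, 48 h replicate 1 or 3), with only the 6 libraries fitted and with the run as a term. The genes that rose were Ly6a, Procr and Gata2. Ly6a, which encodes the stem cell antigen Sca-1 and is also expressed by mesenchymal cells, was at 79.2, 136 and 177 FPKM and then at 904, 920 and 897 (2.86 ± 0.35, adjusted p = 1.69e-07). Its 0 h replicates stood in the order of their stromal sums. Procr rose by 2.47 ± 0.33 and Gata2, from at most 0.321 FPKM to between 1.55 and 2.17, by 1.30 ± 0.29. In all, 3 of 17 tested members rose and 11 fell (median -1.14), 8 without 48 h replicate 3. On the blood-cell scale the median was 0.28, which is 1.22 below that of all genes.

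The fetal program genes went both ways, with 2 of 8 tested higher and 3 lower (median -0.22, and 1.25 scaled, which is 0.25 below that of all genes). Hmga2, a chromatin protein gene of fetal stem cells and of mesenchyme, was at 5.52, 10.1 and 22.5 FPKM at 0 h and at 50.0, 73.5 and 65.3 at 48 h (2.40 ± 0.34, adjusted p = 1.32e-06). Igf2bp1, which encodes an RNA-binding protein, rose by 1.68 ± 0.24. Arid3a, a factor of fetal B lymphopoiesis, was at 29.1, 23.2 and 22.1 FPKM and then at 11.6, 8.15 and 3.36 (-1.69 ± 0.34, adjusted p = 0.000159). Scaled to the blood-cell genes Arid3a was at -0.0019, with no call. Igf2bp3 (-1.45) and the chromatin protein gene Hmga1 also fell. With the stromal mean as a covariate Hmga2 was at -0.13.

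Receptor genes of the IL-7 pathway fell. Il7r, the IL-7 receptor alpha chain gene, was at 31.6, 23.7 and 19.2 FPKM at 0 h and at 13.8, 8.53 and 3.24 at 48 h (-1.59 ± 0.48, adjusted p = 0.00856), a call lost without 48 h replicate 3 and with only the 6 libraries fitted. Il2rg, the shared gamma chain gene, was at 78.5, 77.8 and 78.8 FPKM and then at 27.8, 14.6 and 13.3 (-2.10 ± 0.31, adjusted p = 2.77e-06). The 0 h libraries of Il2rg were level and none of the 48 h libraries came near them. After the scaling the changes were 0.10 for Il7r and -0.30 for Il2rg, with no call. Of 13 tested cytokine receptor and Jak-Stat genes 2 rose and 4 fell (median -0.43, and 1.29 scaled, which is 0.21 below that of all genes). Of all tested genes 22.0% rose and 16.4% fell. Jak1 (0.43) and Stat3 (0.58) rose, though neither call held without 0 h replicate 1 or 3 or without 48 h replicate 3, and only 1 of them held without 48 h replicate 1. Of the others, Csf2rb (-1.63) and Jak3 (-1.12) fell, and neither Stat5a (0.30) nor Stat5b (-0.43) was called.

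Among 13 tested STAT5 target genes 2 rose and 8 fell, with a median of -1.36. Pim1, a survival kinase gene, was at 318, 359 and 278 FPKM at 0 h and at 81.4, 73.3 and 25.1 at 48 h (-2.55 ± 0.35, adjusted p = 7.71e-07). Pim2 was at 104, 66.0 and 54.5 FPKM and then at 33.2, 13.2 and 8.16 (-2.15 ± 0.46, adjusted p = 0.000343). Neither overlapped between the times. Cish (-1.55), Socs2 (-1.36), Il2ra (-1.84), Bcl2 (-1.71), Osm (-1.97) and Mcl1 (-0.50) fell as well, while Socs3 (1.69) and Bcl2l1 (0.70) rose. Osm lost its call without 0 h replicate 1 or 48 h replicate 3 and with only the 6 libraries fitted, and 1 of the 2 rises was lost without 0 h replicate 3. Pim1 was still lower after scaling to the blood-cell genes (-0.72, adjusted p = 0.00106) and Pim2 was not called (-0.37). The scaled median of the list turned to 0.48, which is 1.03 below that of all genes.

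Interferon response genes rose as a group. They encode antiviral proteins and the factors that induce them, and are known to be switched on through a promoter element, the interferon-stimulated response element. The promoters of 3 members are shown because these genes had the largest rises of the list. They are RefSeq windows of 300 bases (250 before to 50 after the start) on the mouse build GRCm38.p6, while the expression files use mm9. Capitals mark matches to GAAA, any 2 bases and GAAA, searched on both strands, so that a match on the other strand reads TTTC, any 2 bases and TTTC. The windows lie at chr19:34640639-34640938 on the plus strand for Ifit1, at chr19:34583279-34583578 on the plus strand for Ifit3 and at chr5:92348840-92349139 on the minus strand for Cxcl10.
Ifit1: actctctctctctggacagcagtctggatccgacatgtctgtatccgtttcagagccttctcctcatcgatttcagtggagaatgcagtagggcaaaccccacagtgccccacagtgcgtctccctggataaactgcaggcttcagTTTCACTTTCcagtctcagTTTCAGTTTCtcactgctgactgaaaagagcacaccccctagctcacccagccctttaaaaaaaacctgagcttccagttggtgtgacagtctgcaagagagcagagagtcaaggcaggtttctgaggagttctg
Ifit3: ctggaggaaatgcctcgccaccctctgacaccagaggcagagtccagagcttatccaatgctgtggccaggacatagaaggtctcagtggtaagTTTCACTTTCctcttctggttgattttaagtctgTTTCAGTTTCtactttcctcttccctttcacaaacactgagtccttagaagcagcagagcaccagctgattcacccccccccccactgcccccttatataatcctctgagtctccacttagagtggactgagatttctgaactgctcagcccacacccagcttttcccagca
Cxcl10: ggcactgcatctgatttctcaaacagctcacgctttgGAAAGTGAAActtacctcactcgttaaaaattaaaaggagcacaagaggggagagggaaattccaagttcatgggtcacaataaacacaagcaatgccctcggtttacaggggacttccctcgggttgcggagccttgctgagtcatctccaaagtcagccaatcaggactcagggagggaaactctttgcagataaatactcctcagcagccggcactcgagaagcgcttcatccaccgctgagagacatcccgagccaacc
The Ifit1 and Ifit3 windows hold 2 matches each and the Cxcl10 window 1. These letters were found for 11 of the 17 interferon response genes with a window in the table (64.7%), against 1079 of all 27025 genes there (3.99%), 1 of 14 stromal feeder genes (7.14%), 97 of 2151 genes called higher (4.51%) and 50 of 1591 called lower (3.14%). A match says only that these letters are in the window.

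Ifit3, an antiviral RNA-response gene, was at 9.50, 12.7 and 5.57 FPKM at 0 h and at 144, 179 and 76.6 at 48 h (3.69 ± 0.71, adjusted p = 9.65e-05). Ifit1, whose protein binds foreign RNA, was at 8.60, 11.0 and 9.08 FPKM and then at 136, 129 and 109 (3.57 ± 0.56, adjusted p = 5.30e-06). Cxcl10, a chemokine gene, was at 3.81, 8.20 and 5.85 FPKM and then at 76.9, 97.3 and 53.5 (3.48 ± 0.63, adjusted p = 4.10e-05). In each of these 3 genes every 48 h library was several times above every 0 h library. The Ifit genes are close paralogs and share sequence. Of 25 tested members 24 rose and none fell, with a median of 2.10, and at least 20 rose when any 1 library was left out. Irf9, part of the factor that binds the element, was the exception, at 25.9, 27.5 and 32.1 FPKM and then at 40.2, 35.4 and 38.3 (0.40, adjusted p = 0.111). All 25, Irf9 included, lay above 0 h without overlap.

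The interferon genes summed to 809, 862 and 691 FPKM at 0 h and to 3217, 3868 and 2528 at 48 h. At 24 h the sums were 2026, 2601 and 774, and at 72 h they were 3511, 4548 and 5351. The stromal sums over the same times averaged 1111 ± 733, 7055 ± 718, 7522 ± 1622 and 5532 ± 1766 FPKM (SD, n = 3 at 0, 24, 48 and 72 h). The 72 h interferon sums all lay above the 24 h sums, and the stromal sums of these times overlapped. The part of stromal transcripts in the interferon rise was not tested. In 24 h replicate 3, 17 of the 25 genes stood above their 0 h mean, against 24 and 25 in the other 24 h libraries. Zbp1 (3.52 ± 0.69), I830012O16Rik, named Ifit3b in RefSeq (4.17 ± 0.70), and Gbp1, named Gbp2b there (3.35 ± 0.57), also belong to the 12 largest rises and are known as interferon-induced, though they were in no list. The median of the list was 0.75 with the stromal mean as a covariate, where no member passed the test, and 3.80 scaled to the blood-cell genes, which is 2.30 above that of all genes. Antigen presentation genes, several of them interferon targets, were mostly not called. Of 15 tested, Tapbp rose (1.16 ± 0.32), Psmb8 fell (-1.14 ± 0.46, adjusted p = 0.0469, lost without any of 5 single libraries and with the run as a term) and the median was -0.20, at 1.52 scaled and thus 0.01 above that of all genes. With the run of library codes as a term 5 rose, none fell and the median turned to 0.52.

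**Figure D4:**
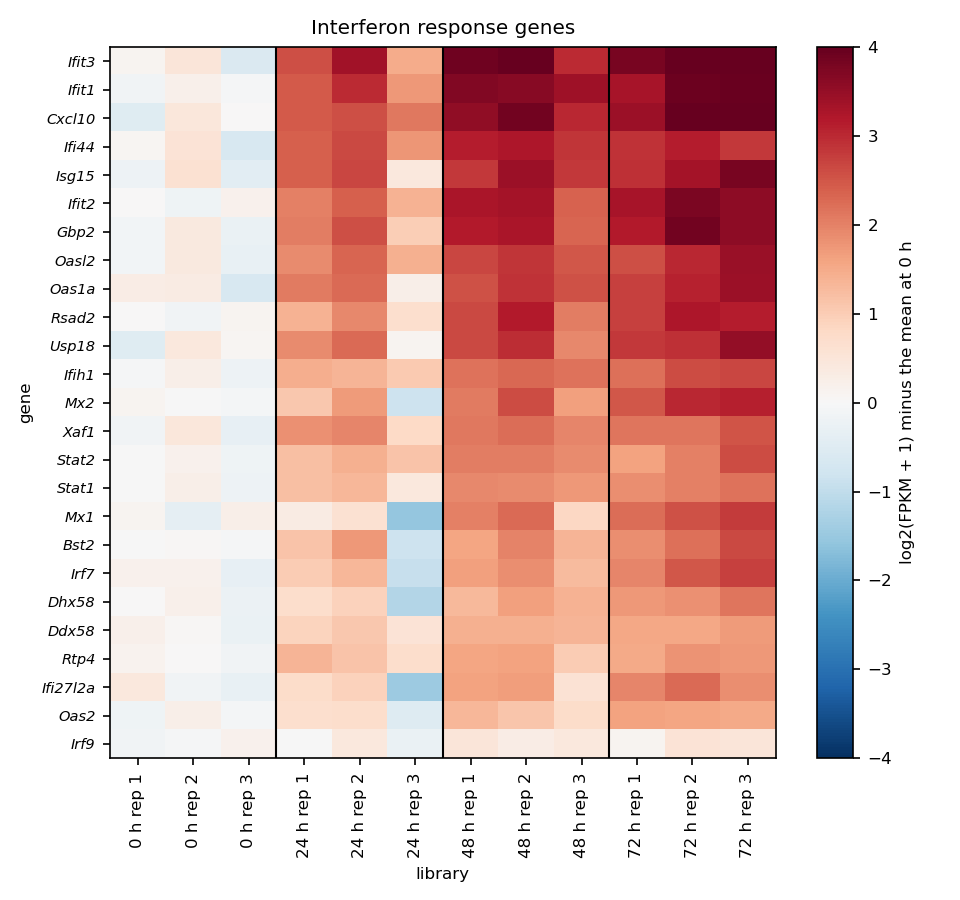
Log2(FPKM + 1) minus the 0 h mean (colour, red for higher; values above 4 are drawn as 4) of the 25 interferon response genes (rows) in the 12 libraries at 0, 24, 48 and 72 h (columns). All 25 genes are above the 0 h mean in all 3 libraries at 48 h, and 17 of them in 24 h replicate 3.

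Matrix, contractile and niche genes of stromal cells rose. Col1a1, a type I collagen gene, was at 61.0, 123 and 285 FPKM at 0 h and at 790, 999 and 1637 at 48 h (3.07 ± 0.37, adjusted p = 1.18e-07). Mgp, a matrix protein gene, had the largest rise of all genes the naming rule could take, from 11.1, 9.31 and 40.6 FPKM to 295, 328 and 332 (4.20 ± 0.43, adjusted p = 1.29e-08). Fn1, the fibronectin gene, was at 42.9, 81.0 and 156 FPKM and then at 797, 799 and 1021 (3.39 ± 0.31, adjusted p = 4.70e-09). In Col1a1 and Fn1 the 0 h replicates followed the order of the stromal sums, of which both genes are themselves part. No gene of the 3 overlapped between the times. All 24 tested stromal genes rose (median 2.81), among them Cav1 (3.32 ± 0.35), a gene of membrane caveolae. All 13 tested smooth muscle contractile genes rose too (median 2.38), with Myl9 at 2.76 ± 0.37, Tagln at 2.67 ± 0.38 and Cnn2 at 2.66 ± 0.31. Lum and Dcn, other matrix genes of many fibroblasts, were under 0.5 FPKM in all 6 libraries.

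The niche genes encode factors that support blood progenitors, and 13 of 18 rose while 1 fell (median 2.12). Cxcl12, the chemokine that holds B-cell precursors in their niche, was at 166, 240 and 235 FPKM at 0 h and at 1460, 1493 and 1478 at 48 h (2.80 ± 0.49, adjusted p = 2.99e-05). Kitl, which encodes SCF, was at 13.5, 16.0 and 20.0 FPKM and then at 116, 85.4 and 115 (2.61 ± 0.42, adjusted p = 8.97e-06). Il7 itself was at 0.429, 0.324 and 2.60 FPKM and then at 7.58, 8.06 and 7.26 (2.19 ± 0.32, adjusted p = 2.06e-06). The 48 h libraries were close to each other in Cxcl12 and Il7 and all above 0 h. Ccl7 (2.47 ± 0.30), Angpt1 (2.44), Csf1 (2.40) and Bmp4 (2.06) rose, Flt3l was at -0.07 with no call, and Tgfb1, a growth factor gene, fell by 1.03. Scaled to the blood-cell genes Tgfb1 was called higher (0.78, adjusted p = 0.00377), though by less than the 1.51 by which all genes shifted. The medians of the stromal, contractile and niche lists were also above that of all genes after scaling to the blood-cell genes, by 3.08, 2.55 and 1.83.

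The 5 largest falls of the genes the naming rule could take were those of Ccl3, Fosb, Cox6a2, Fos and Il12a. Ccl3, an inflammatory chemokine gene, was at 327, 310 and 281 FPKM at 0 h and at 8.02, 10.0 and 1.28 at 48 h (-5.65 ± 0.47, adjusted p = 8.53e-10). Fosb, an AP-1 subunit gene, was at 37.8, 18.3 and 46.9 FPKM and then at 0.438, 0.205 and 0.419 (-4.61 ± 0.47, adjusted p = 1.39e-08). Fos was at 44.1, 24.5 and 75.4 FPKM and then at 2.49, 1.16 and 1.59 (-4.05 ± 0.67, adjusted p = 1.36e-05). None of these 3 genes overlapped between the times. Il12a, a cytokine subunit gene, was at 31.0, 28.2 and 45.1 FPKM and then at 1.47, 1.37 and 2.10 (-3.74 ± 0.46, adjusted p = 1.84e-07). Cox6a2, which encodes a muscle form of a cytochrome oxidase subunit, was at 58.9, 116 and 111 FPKM and then at 3.44, 4.83 and 3.29 (-4.26 ± 0.54, adjusted p = 2.29e-07). Scaled to the blood-cell genes these 5 falls remained, at -3.97 for Ccl3, -3.22 for Fosb, -2.44 for Fos, -2.11 for Il12a and -2.54 for Cox6a2, each called. Per 1000 FPKM of the blood-cell genes Ccl3 went from 111, 92.7 and 113 to 7.28, 10.2 and 2.80.

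Of the other genes among the 12 largest falls, Ccr9, Myl10 and Gm10007 lost their call without single libraries (Gm10007 without 0 h replicate 1 or 48 h replicate 2). Ccr9, a lymphoid chemokine receptor gene, was at 76.6, 13.6 and 11.5 FPKM at 0 h and at 5.70, 0.178 and 0 at 48 h (-3.60 ± 1.08, adjusted p = 0.00832), a call lost without 0 h replicate 1 or 48 h replicate 3. Myl10 was at 1034, 394 and 396 FPKM and then at 172, 54.5 and 18.6 (-3.25 ± 0.93), a call lost without 48 h replicate 3. Both genes varied severalfold within each time. Tnni2 (-3.17 ± 0.63) and Tph1 (-3.13 ± 0.66), genes of a troponin subunit and of serotonin synthesis, kept their call without any single library and were lower after the scaling as well (-1.58 and -1.52). Beta-s, a hemoglobin gene, was at 77.8, 98.9 and 73.0 FPKM and then at 17.1, 11.8 and 0.861 (-3.47 ± 0.55). Hemoglobin copies share reads, and the other copy listed, Hbb-b1, was not called.

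The immediate-early genes, which respond first to growth signals, went both ways, with 10 of 29 higher, 9 lower (5 with the run as a term) and a median of 0.31. Fosl1, another AP-1 gene, was at 0.325, 0.490 and 5.10 FPKM at 0 h and at 11.5, 19.5 and 16.5 at 48 h (2.85 ± 0.46, adjusted p = 1.03e-05). Ctgf (2.65), Cyr61 (2.46), Egr2 (2.07) and Ptgs2 (1.92) rose, and Dusp2 (-2.61), Zfp36 (-2.23) and Jund (-1.79) fell. Ctgf and Cyr61 encode matrix-associated proteins that stromal cells make. With libraries scaled to the blood-cell genes the median was 2.01, which is 0.50 above that of all genes, and 3 members were lower.

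Few cell cycle genes passed the test, which 38.4% of all tested genes did. Of 25 DNA replication genes 2 rose and 5 fell (median -0.30), of 21 mitosis genes 3 rose and 2 fell (median 0.04), and of 13 cyclin and Cdk inhibitor genes 2 rose and 1 fell (median -0.09). Of the 5 replication genes that fell, 1 was still called without 0 h replicate 2 or 48 h replicate 3, 2 without 0 h replicate 1 and 3 without 48 h replicate 1, and of the 2 that rose 1 without replicate 2 of either time or 48 h replicate 3. The lower mitosis genes numbered 0 without 0 h replicate 2 and 1 without 48 h replicate 2, and the lower cyclin gene was lost without 0 h replicate 2 or 48 h replicate 3. With the run as a term the mitosis list had 1 higher, 4 lower and a median of -0.23, and the cyclin list 2 lower and a median of 0.08. Mcm6, a helicase subunit gene, was at 151, 154 and 119 FPKM at 0 h and at 105, 98.0 and 65.3 at 48 h (-0.68 ± 0.18, adjusted p = 0.00286, lost without 48 h replicate 3 and with only the 6 libraries fitted). Mki67, a proliferation marker, was at 55.0, 64.8 and 50.0 FPKM and then at 45.4, 32.9 and 38.8 (-0.53 ± 0.17, adjusted p = 0.0158, lost without replicate 2 of either time). Cdk1, the mitotic kinase gene, rose from 34.7, 28.2 and 41.8 to 56.6, 65.6 and 66.6 (0.85 ± 0.20, adjusted p = 0.000822). Ccnd1, a D-type cyclin gene, was at 7.46, 12.9 and 24.7 FPKM and then at 72.8, 82.8 and 88.0 (2.50 ± 0.24, adjusted p = 7.89e-09), and its relatives Ccnd2 (0.10) and Ccnd3 (-0.09) were not called. Myc, a growth regulator, was at 49.5, 68.7 and 84.6 FPKM and then at 46.8, 67.4 and 38.6 (-0.41 ± 0.27, adjusted p = 0.240). Scaled to the blood-cell genes, the replication median turned to 1.45, which is 0.06 below that of all genes, that of the mitosis genes was 0.31 above it and that of the cyclin list 0.07 below it (1.81 and 1.58).

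Targets of p53 and genes of glycolysis rose more often than they fell. Of 14 p53 target genes 9 rose and 1 fell (median 1.00, and 2.59 scaled, which is 1.09 above that of all genes). Phlda3, an inhibitor of Akt, was at 12.3, 17.5 and 35.8 FPKM at 0 h and at 110, 134 and 189 at 48 h (2.76 ± 0.32, adjusted p = 5.81e-08). Eda2r (2.09 ± 0.37), Plk2 (2.09 ± 0.26), Fas (1.28) and Mdm2 (1.03), the negative regulator of p53, rose, Bbc3 fell by 1.24, and Cdkn1a (0.27) was not called. The 0 h replicates of Phlda3 stood in the order of their stromal sums, and its change was -0.08 with the stromal mean as a covariate. Of 17 glycolysis genes 12 rose and 1 fell (median 0.52, and 2.37 scaled, which is 0.86 above that of all genes). Between 5 and 11 rose when 1 library was left out, with 5 without 0 h replicate 3. Hk1, a hexokinase gene, was at 10.6, 13.4 and 18.7 FPKM and then at 59.4, 53.8 and 74.7 (2.09 ± 0.23, adjusted p = 2.96e-08), and Pfkl (1.58 ± 0.23) and Pkm2 (1.02 ± 0.15) rose too. Hk2 (-0.02) was not called and Gpi1 fell by 0.71.

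Of 13 Bcl2 family genes 2 rose (1 without 0 h replicate 3 or 48 h replicate 2 or 3) and 5 fell (median -0.50, and 1.30 scaled, which is 0.20 below that of all genes). Bcl2, which protects lymphocytes from death, was at 80.6, 75.6 and 60.4 FPKM at 0 h and at 35.7, 20.2 and 13.1 at 48 h (-1.71 ± 0.43, adjusted p = 0.00177). Pmaip1 and Bmf, which promote death, fell by 2.46 ± 0.35 and 1.76 ± 0.29. Pmaip1 was lower after the scaling too (-0.89, adjusted p = 0.0102), whereas Bcl2 (0.08) and Bmf (-0.13) were not called there. Among 15 FOXO target and quiescence genes 5 rose (3 without 0 h replicate 3 or 48 h replicate 2 or 3) and 4 fell (1 with the run as a term; median 0.25, and 1.53 scaled, which is 0.02 above that of all genes). Btg1 (1.53 ± 0.21), an anti-proliferative gene, rose, Gadd45a rose with overlapping libraries (1.64 ± 0.51, lost without replicate 2 of either time and with only the 6 libraries fitted), and Klf2 fell by 1.21 ± 0.37, a call lost with the run as a term (-0.43, adjusted p = 0.467).

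**Figure D5:**
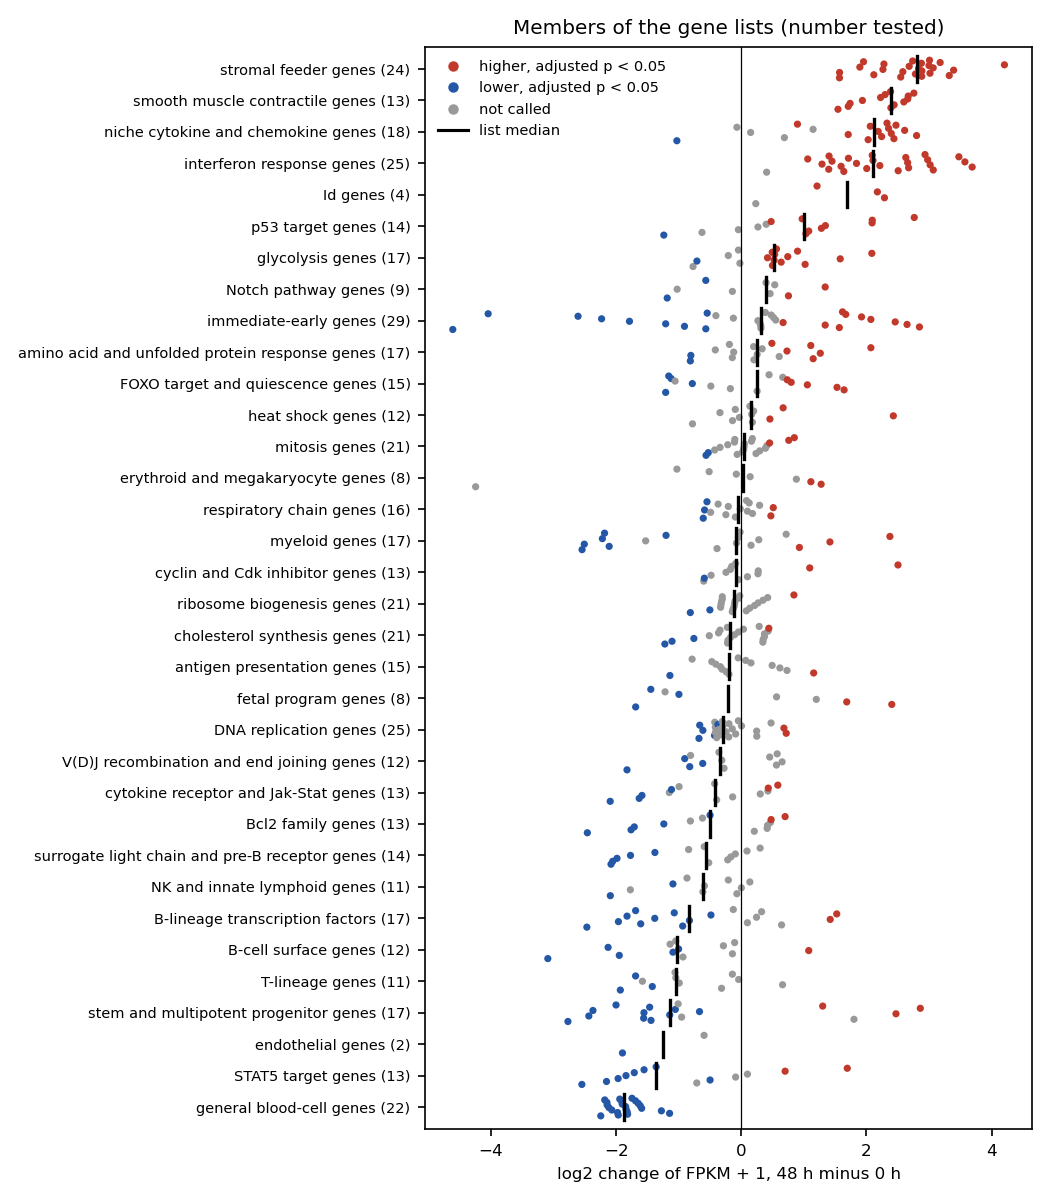
Log2 change of FPKM + 1 (48 h minus 0 h) of each tested member of 34 gene lists, with the number tested in brackets; red and blue points passed limma's test, grey points did not, and black bars are list medians. Stromal, contractile, niche and interferon genes lie at the top with medians from 2.10 to 2.81 and the blood-cell genes at the bottom at -1.88; scaled to the blood-cell genes most medians below 0 turn positive, for example from -0.83 to 0.52 for the B-lineage transcription factors.

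The cell type markers were checked against the label. All 7 B-lineage and all 5 progenitor markers averaged at least 1 FPKM at both times. The progenitor markers summed to between 441 and 572 FPKM at 0 h and to between 90.8 and 223 at 48 h. The B-lineage markers summed to 81.3 to 120 and to 96.6 to 155 FPKM, with overlap. Some defining markers of other cells were under 0.5 FPKM in all 6 libraries, namely Cd3e and Bcl11b of T cells, Elane of granulocytes, Ncr1, Tbx21 and Prf1 of NK cells, Gata1, Epor, Alas2, Car1 and Vwf of erythroid and megakaryocyte cells, and Cdh5, Kdr, Emcn, Tie1, Robo4 and Sox17 of endothelium. Other markers of these cells were present. At 0 h 2 of 5 T-lineage, 3 of 5 myeloid, 8 of 13 NK and innate, 5 of 15 erythroid and megakaryocyte and 2 of 9 endothelial markers averaged at least 1 FPKM, and at 48 h 1, 2, 8, 5 and 1. Myeloid marker sums were 110 to 130 FPKM at 0 h and 92.8 to 123 at 48 h, and those of the NK list 168 to 347 and 51.6 to 113. Erythroid and megakaryocyte markers summed to 78.4 to 143 and 13.8 to 26.1 FPKM, endothelial markers, mostly Pecam1, to 30.1 to 35.9 and 5.05 to 13.4, and T-lineage markers to 5.74 to 8.32 and 2.20 to 3.83. The part of such cells in the other results was not tested.

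The myeloid, T-lineage and NK lists had more lower than higher members, where 22.0% of all tested genes were called higher and 16.4% lower. With 3 lower members each, the T-lineage and NK lists are too small to set them apart from that share. Of 17 myeloid genes 3 rose and 6 fell (median -0.08), with Tyrobp, an adaptor of activating receptors, at 470, 558 and 344 FPKM and then at 149, 83.0 and 35.2 (-2.55 ± 0.41, adjusted p = 8.74e-06) and still lower after the scaling (-0.71). Mpo fell by 2.51 ± 0.72, a call lost without 0 h replicate 2 and with only the 6 libraries fitted, and Camp rose by 2.37 ± 0.56. Of 11 T-lineage genes 3 fell (2 without 48 h replicate 3), Thy1 (-1.93 ± 0.49), Lck (-1.69 ± 0.43) and Cd5 (-1.42 ± 0.46). Cd5 was at no more than 3.86 FPKM in any of the 6 libraries. Its call was lost without 0 h replicate 3, without 48 h replicate 1 or 3 and with the run as a term. Of 11 NK and innate lymphoid genes 3 fell (1 without 48 h replicate 3), with Il18r1 at 95.6, 155 and 128 FPKM and then at 43.3, 35.4 and 14.5 (-2.09 ± 0.31, adjusted p = 2.11e-06). After scaling to the blood-cell genes none of these T and NK genes was called lower. The scaled medians were 0.56 for the myeloid, 0.32 for the T-lineage and 0.15 for the NK list, all below that of all genes.

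Against the neighbouring times, limma called 8 genes between 48 h and 24 h (0.0575% of those tested), 7 higher (0.0503%) and 1 lower (0.00719%) at 48 h. Between 72 h and 48 h it called 6 (0.0431%), 5 higher (0.0360%) and 1 lower (0.00719%) at 72 h. At an unadjusted p under 0.05 there were 1579 and 1580. Scd2 and Acat2, genes of fatty acid and sterol metabolism, were among the genes higher at 48 h (0.85 ± 0.15 and 0.93 ± 0.18), together with Eepd1, Galnt9, Gdpd2 and Igfbp5, and Gm12238 was lower, being listed at 0 in the libraries of 0, 48 and 72 h. Between 48 h and 72 h Atp1b1, Atp5sl, Ctse, Mreg and Slc37a1 were called higher and Slc25a24 lower. These genes are named because so few were called, after their values were seen.

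Over the times 24, 48 and 72 h Igll1 averaged 7.71, 31.3 and 104 FPKM and Vpreb1 4.42, 21.9 and 80.1. Cd79a averaged 5.09, 13.2 and 49.4 FPKM and Pax5 2.46, 2.74 and 13.4 at the same times. None of these steps passed the test with 3 libraries a side. Per 1000 FPKM of the blood-cell genes Igll1 was at 19.2, 5.41 and 2.54 at 24 h and at 69.7, 79.6 and 68.6 at 72 h, so its 48 h values lay between without overlap. Flt3, at 37.6, 27.4 and 20.6 per 1000 at 24 h and 27.9, 23.7 and 23.5 at 72 h, overlapped its 48 h values.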

How the data were processed

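Poly(A) RNA of iLS cell cultures was sequenced on an Illumina HiSeq system, per the labels' protocols. The deposited table, made by the authors, gives FPKM (fragments scaled to transcript length and library size) for each gene in each library. Per the submitters' processing notes the tools were TopHat2 (2.1.0) and Cufflinks (2.1.1), on mm9. The file name says corrected without saying how, and strand use is not given in the sources used here. FPKM hides depth, so no counting interval is given and no count model was used.

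Values were analysed as log2(FPKM + 1), a pseudocount of 1, which understates changes of low genes. A gene was tested if 3 or more of the 42 libraries (14 time points with 3 each) reached 1 FPKM, as 13907 of 23234 did. In limma 3.58.1 (R 4.3.3) each time point had its own mean, with eBayes and a mean-variance trend. The estimate of a gene's spread was shared by all 42 libraries. The libraries of 48 h were compared with those of 0, 24 and 72 h, with Benjamini-Hochberg adjustment and a threshold of 0.05. The code was tested on simulated data. Summed FPKM were compared by an exact permutation test. Same-numbered replicates of 0 h and 48 h deviated together at r = 0.118, -0.03 and 0.130 across tested genes, and the main fit did not pair them. The stromal sums nevertheless rose from replicate 1 to replicate 3 at 0, 48 and 72 h, though not at 24 h. The blood-cell sums were lowest in replicate 3 at 0, 24, 48 and 72 h. What equal replicate numbers share across times is not stated, and a fit with a replicate block is given below.

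Named genes were the 12 strongest rises and 12 strongest falls among called genes without overlap of libraries (small RNA genes left out), up to 3 called members of each of 34 lists with the largest change, and a fixed set. Leaving out a few that are not reported here, there were 133. Further members are examples of their list, chosen with their values known. The genes, lists and comparisons were chosen with earlier results of these data known. Alternatives covered the pseudocount, the filter, 4 other scalings (quantile, median ratio, without small RNA genes, to the blood-cell genes), the libraries fitted, runs of library codes, a replicate block, the stromal mean as a covariate, a 2-fold minimum, a fit without the trend and leaving out each library. Promoter windows came from a RefSeq table for GRCm38.p6, matched by symbol.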

Additional observations from a re-analysis of the deposited data

How the results depend on the processing

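The 5344 calls of 48 h against 0 h (3061 higher, 2283 lower) stayed within 1.5 times under the other pseudocounts, filters and scalings that do not use the blood-cell genes, with runs of library codes as a term, with only the 6 libraries and without the trend. Quantile normalization gave 5564 calls, of which 48.9% were higher in place of 57.3%. The blood-cell scale gave 11105 calls (11033 higher, 72 lower; 99.4% higher). With a 2-fold minimum there were 874 (741 and 133), and with the stromal covariate 0 (0 and 0; 691 at an unadjusted p under 0.05). Leaving out 1 library gave 4068 to 5120 calls, 2548 to 2886 higher and 1520 to 2234 lower, the lowest without 48 h replicate 3. The 8 calls of 48 h against 24 h became 4 with a pseudocount of 0.1 and with a filter at 5 FPKM, 16 scaled to the blood-cell genes, 1347 with runs as a term and 1 with a 2-fold minimum, and 2 to 161 without 1 library (81 without 24 h replicate 1, 161 without 24 h replicate 2, 2 without 48 h replicate 1, and 3 without 24 h replicate 3 or 48 h replicate 2). The 6 calls of 72 h against 48 h became 0 with a pseudocount of 0.1, 41 with one of 5, 19 with quantile normalization, 3 without small RNA genes, 3407 scaled to the blood-cell genes, 144 with runs as a term, 3 with the stromal covariate and 0 with a 2-fold minimum, and 0 to 14 without 1 library (0 without 72 h replicate 2, 14 without 48 h replicate 1). Each 0 here is limma's count. The differences of the sums were 2.52 to 3.45 (stromal) and -2.12 to -1.48 (blood-cell) without 1 library. The causes were not tested. Depth is unknown, and low values limit Id4, Gata2 and Dntt most.

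With the replicate block, 5754 genes were called at 48 h against 0 h, 25 against 24 h in place of 8 and 64 at 72 h against 48 h in place of 6. All 133 named genes kept their call and direction in that fit. Same-numbered replicates correlated weakly across genes, while their stromal sums shared an order at 0, 48 and 72 h. Whether this block suits the design is therefore not known.

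Scaled to the blood-cell genes, 27 of the 133 named genes turned from below 0 to above it, each to less than the 1.51 by which all genes shifted. Rag1 (0.57) and Vpreb3 (0.10) were called on neither scale, and the other 25 were Xrcc6 (0.89), Hmgb2 (1.01), Il7r (0.0964), Lck (0.0413), Nfil3 (0.64), Psmb8 (0.68), Mcm6 (1.15), Kif23 (1.22), Cdk6 (1.17), Klf2 (0.54), Bcl2 (0.0836), Dkc1 (0.96), Fbl (1.33), Sdha (1.21), Atp5a1 (1.25), Uqcrc2 (1.27), Dhcr7 (0.50), Mvd (0.62), Cd79a (1.47), Cd79b (1.09), Kit (0.12), Cd34 (0.39), Meis1 (0.67), Myc (1.40) and Mki67 (1.27). With the stromal mean as a covariate, which Col1a1 is itself part of, 35 named genes changed sign, none with a call there. Without a call in either fit were Cd79a (1.90), Cd79b (0.38), Rag1 (0.46), Tcf3 (-0.0864) and Pou2af1 (-0.54), and the other 30 were Gchfr (-1.44), Ccr9 (0.78), Myl10 (0.31), Tph1 (0.0214), Myl9 (-0.66), Tagln (-0.36), Cnn2 (-0.21), Id1 (-0.30), Id3 (-0.16), Syk (0.34), Hmgb2 (0.58), Hmga2 (-0.13), Il7r (1.04), Osm (0.35), Camp (-0.26), Nfil3 (0.0338), Fosl1 (-0.20), Mcm6 (0.29), Gadd45a (-0.0934), Phlda3 (-0.0800), Eda2r (-0.0866), Dkc1 (0.55), Fbl (0.14), Atp5a1 (0.0206), Uqcrc2 (0.28), Ddit3 (-0.21), Chac1 (-0.23), Bag3 (-0.61), Mki67 (0.32) and Col1a1 (-0.28). Of the 123 named genes that were called, 27 lost the call without some single library. With the run of library codes as a term 15 lost it (Gm10007, Id4, Cd5, Nfil3, Psmb8, Tk1, Birc5, Klf2, Uqcrc2, Mvd, Hspe1, Hes1, Jag1, Dntt and Meis1), and with only the 6 libraries fitted 10 did (Il7r, Osm, Mpo, Mcm6, Cdk6, Gadd45a, Uqcrc2, Hes1, Dntt and Meis1). A pseudocount of 0.1 ended the calls of Gm10007, Gp1bb and Psmb8, one of 5 those of Hes1 and Dntt, quantile normalization those of Hspe1 and Jag1, and no filter or no trend that of Psmb8.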

Other observations

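Stress and metabolic lists that the comparison did not turn on moved in small parts, where 22.0% of all tested genes were called higher and 16.4% lower. Of 17 amino acid and unfolded protein response genes 6 rose and 2 fell (1 without 0 h replicate 1; median 0.25). With libraries scaled to the blood-cell genes their median was 2.08, which is 0.57 above that of all genes. Ddit3, a stress-induced factor, was at 16.8, 18.7 and 32.9 FPKM at 0 h and at 81.0, 128 and 82.0 at 48 h (2.07 ± 0.34, adjusted p = 1.12e-05 by limma), without overlap. Chac1 (1.26 ± 0.30) and the chaperone gene Hsp90b1 (1.15 ± 0.14) rose as well. Of 12 heat shock genes 3 rose and none fell (median 0.15, and 1.85 scaled, which is 0.35 above that of all genes), with Bag3, a co-chaperone gene, at 1.43, 4.31 and 7.13 FPKM and then at 21.6, 21.8 and 30.7 (2.43 ± 0.37). With the run of library codes as a term the heat shock median turned to -0.07. With the stromal mean as a covariate Ddit3, Chac1 and Bag3 were at -0.21, -0.23 and -0.61.

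Of 21 cholesterol synthesis genes 1 rose and 4 fell (median -0.18). Dhcr7 (-1.22 ± 0.29) and Mvd (-1.11 ± 0.29, a call lost with the run of library codes as a term) were among those that fell. On the blood-cell scale both were above 0, at 0.50 and 0.62, and so 1.00 and 0.88 below the median of all genes. Ribosome biogenesis genes had 1 higher and 2 lower of 21 (median -0.11) and respiratory chain genes 2 higher and 3 lower of 16 (median -0.06), and scaled their medians were 0.20 and 0.26 above that of all genes. Of 9 Notch pathway genes 2 rose and 2 fell (median 0.39, and 1.14 scaled, which is 0.36 below that of all genes). Hes1, a Notch target, rose by 1.34 ± 0.41, a call lost without 0 h replicate 1 or 48 h replicate 2, with only the 6 libraries fitted and with the run of library codes as a term (0.94, adjusted p = 0.123 by limma), while Dtx1, another target, fell by 1.18 ± 0.29. The rises of the Notch list numbered 1 without 0 h replicate 1 or 48 h replicate 1 or 2 and 0 with the run as a term, which also turned the respiratory chain median to 0.03. Respiratory chain genes had 1 fall without 0 h replicate 1 and 1 rise without 0 h replicate 2 or 48 h replicate 3. Ribosome biogenesis genes had 1 fall without 0 h replicate 2 and 0 without 48 h replicate 3, and the rise among the cholesterol genes was lost without 0 h replicate 1 or 2 or 48 h replicate 3.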
